A study of Mus musculus with 18 samples.

Results

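The genes described here are 7 members of the Notch signalling pathway in mouse bone marrow-derived macrophages: the receptors Notch1 and Notch2, the ligand Jag1, the nuclear factor Rbpj, the target genes Hes1 and Hey1, and the feedback inhibitor Nrarp. They were chosen by gene name from a deposited table of 54532 genes, from a list drawn up with earlier results of these data known. The filter on low counts left 14684 genes, among them 6 of the 7, and Nrarp did not pass it. The study asked how macrophages with and without a Smad1 deletion respond to TGF-β1 or BMP4, secreted factors that signal through Smad proteins. Polyadenylated RNA was sequenced from marrow macrophages of mice aged 2 to 3 months in 6 groups of 3 libraries. All mice carried loxP-flanked Smad1 alleles (Smad1 fl/fl), and the mice called MyS1KO also carried LyzMCre, a Cre recombinase driven from the lysozyme M gene, which acts in myeloid cells. Cells of all groups had been cultured for 24 h and then for 48 h, with the growth factor CSF-1 at 12 and later at 120 ng/ml. Their culture used 15% serum and 10% WEHI-3 medium. The groups of each genotype were untreated, given 10 ng/ml TGF-β1 or given 50 ng/ml BMP4, for 4 h after about 16 h of serum starvation. Nothing in the labels states that libraries of a group came from different mice or cultures, so the p-values measure how far these libraries differ, and some of that may be technical.

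Notch receptors are single-pass membrane proteins that are bound by ligands on neighbouring cells. Binding exposes the receptor to cleavage by an ADAM protease and then by γ-secretase, which frees the intracellular domain to enter the nucleus. There it joins the DNA-binding protein Rbpj and a Mastermind-like coactivator and switches on genes such as Hes1, Hey1 and Nrarp, whereas Rbpj without Notch recruits corepressors. Hes1 and Hey1 are basic helix-loop-helix repressors, and in several cell types they are also switched on by TGF-β or BMP through Smads. In macrophages, Notch signalling is best known for tuning inflammatory gene expression and the fate of monocytes.

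The libraries held 15153296 to 24639163 counts, so 3 counts, taken as the floor of detection, equalled 0.122 to 0.198 CPM (counts relative to library size). Floors and counting intervals cover counting error only. Macrophage markers were abundant in every library, with a summed level of 10900 to 30700 CPM over 10 genes. Lyz2, the gene that carries the Cre insertion, went against the genotype labels: it stood at 13400 to 17800 CPM in the 9 libraries labelled knockout, at 8110 to 9860 CPM in the floxed libraries numbered 2 and 3, and at 37.6 to 74.3 CPM in the 3 floxed libraries numbered 1. Smad1 itself was counted at 19.4 to 26.8 CPM in the knockout libraries and at 22.1 to 31 CPM in the floxed ones. Which exon the loxP sites flank is not given in the sources used here, so the count of Smad1 does not check the deletion. The groups are therefore called floxed-labelled and knockout-labelled, and calls of named genes that changed without the floxed libraries numbered 1 are given with and without them. In bulk RNA, fewer cells of a type and less RNA per cell cannot be told apart.

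The sequences upstream of the start sites are shown because 6 of the members changed with TGF-β1, in one direction or the other, and because Rbpj and the Smads each bind a short DNA motif. RefSeq promoter entries of build GRCm38.p6 were found for 5 of the 7 members, and not for Hes1 or Hey1. The 250 bases before each start were searched on both strands for the Rbpj core TGGGAA and for the Smad binding element CAGAC, motifs that can share 2 letters where they meet. Capitals mark the matches. Only the stretch outside every exon that the GENCODE annotation of the same build gives for that gene is printed.
Notch1, chr2:26503825-26504072, minus strand: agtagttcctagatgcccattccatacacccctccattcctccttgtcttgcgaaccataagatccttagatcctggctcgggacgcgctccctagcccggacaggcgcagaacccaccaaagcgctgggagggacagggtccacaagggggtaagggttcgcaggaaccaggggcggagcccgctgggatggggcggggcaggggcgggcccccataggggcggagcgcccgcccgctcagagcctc
Notch2, chr3:98013288-98013526, plus strand: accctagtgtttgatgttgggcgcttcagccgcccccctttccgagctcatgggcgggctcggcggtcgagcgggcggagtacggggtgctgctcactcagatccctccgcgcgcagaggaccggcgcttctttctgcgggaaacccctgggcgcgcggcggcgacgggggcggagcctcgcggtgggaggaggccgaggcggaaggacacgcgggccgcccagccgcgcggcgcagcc
Rbpj, chr5:53590096-53590213, plus strand: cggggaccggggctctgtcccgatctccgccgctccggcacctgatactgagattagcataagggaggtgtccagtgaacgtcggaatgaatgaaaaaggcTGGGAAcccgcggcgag
Jag1, chr2:137116645-137116770, minus strand: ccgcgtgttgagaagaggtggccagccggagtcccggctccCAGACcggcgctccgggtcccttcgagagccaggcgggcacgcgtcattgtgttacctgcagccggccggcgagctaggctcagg
Nrarp, chr2:25180508-25180757, plus strand: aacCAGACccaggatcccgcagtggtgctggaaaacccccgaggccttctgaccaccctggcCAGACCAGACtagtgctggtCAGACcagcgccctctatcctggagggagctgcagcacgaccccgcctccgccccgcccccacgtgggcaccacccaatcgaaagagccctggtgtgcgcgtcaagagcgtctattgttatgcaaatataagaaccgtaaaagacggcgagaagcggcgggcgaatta
The Rbpj core occurred in 21.6% and the Smad element in 42.2% of the 32851 promoter windows of 250 bases. The printed stretches of Rbpj and Jag1 are shorter, at 118 and 126 bases, so these shares are not those for stretches of their length. Within the printed stretches, Rbpj held 1 core, Jag1 held 1 Smad element and Nrarp held 4 Smad elements, and Notch1 and Notch2 held neither motif. The full window of Rbpj held 1 further core, inside an annotated exon. The windows upstream of Notch1 and Rbpj lie within the longer gene spans of the deposited table. A match describes letters only and not binding.

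Compared per gene length, the members fell into a clear order of levels, and TGF-β1 narrowed it. The order rests on the deposited gene lengths, 12750 bases for Rbpj and 14232 for Notch1, which need not be those of the transcripts present. Notch2 had the highest FPKM (the deposited values, scaled for gene length and library size), with a mean of 28.4 over the 18 libraries. Rbpj followed at 14.6, Notch1 at 6.01 and Jag1 at 3.72 FPKM. Notch2 stood above Rbpj, and Notch1 above Jag1, in 18 of 18 libraries. Rbpj stood above Notch1 in all 12 libraries without TGF-β1 but in only 3 of the 6 libraries with it. Those 3 were the floxed-labelled ones, with Rbpj at 8.84 to 10.1 and Notch1 at 7.91 to 8.42 FPKM. In the 3 knockout-labelled ones Rbpj was at 8.17 to 8.95 and Notch1 at 9.16 to 9.99 FPKM. This split by label carries no test. Hes1 at 0.102, Hey1 at 0.0779 and Nrarp at 0.00838 FPKM on average lay far below the others, and Hes1 and Hey1 could not be ordered against each other beyond their spread.

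TGF-β1 changed each of the 6 tested members in both genotype labels: Notch1, Jag1, Hes1 and Hey1 rose, and Notch2 and Rbpj fell. A gene was called when its edgeR quasi-likelihood p, adjusted over all 14684 genes tested, was under 0.05. The background was high: 33% of all genes were called in floxed-labelled cells (17% higher, 16% lower) and 34.6% in knockout-labelled cells (17.6% higher, 17.1% lower). The treated and untreated libraries did not overlap for any of the 6 members, which was so for 43.9% and 44.9% of all genes. Hes1 and Hey1 passed the filter only through the TGF-β1 groups, so they had to differ, and the count of 6 is given for the genes one by one and not as support for the list. The untreated libraries of each label serve as controls for TGF-β1 and for BMP4 alike, so the responses to these factors are not independent. Markers of other cell types moved as well. The summed level of 7 dendritic cell markers, 3 of them below 1 CPM in every library, was 2.27 to 4.28 CPM without and 4.19 to 5.65 CPM with TGF-β1. That of 8 osteoclast markers, 3 below 1 CPM and Calcr at 0, was 52.9 to 79.3 CPM without and 39.6 to 57.6 CPM with it, and that of 8 lymphoid markers, 7 below 1 CPM, was 11.7 to 19.4 and 8.68 to 13.6 CPM. Their part in the members' changes was not tested.

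**Figure D1:**
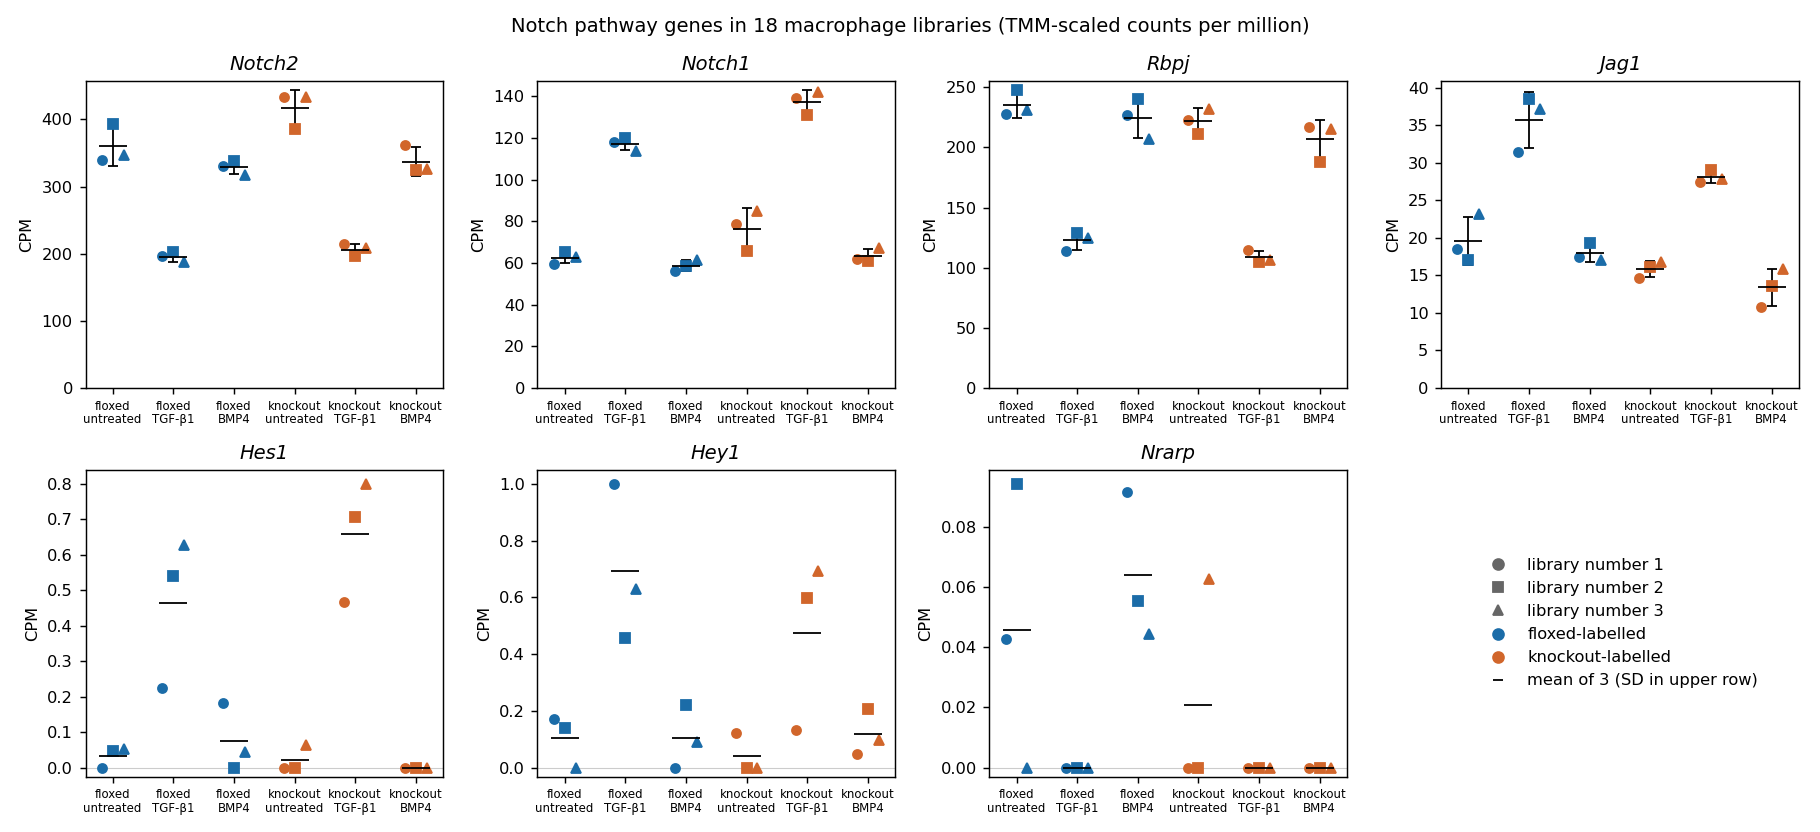
CPM of the 7 genes in each of the 18 libraries, with the 6 groups on the horizontal axis, marker shape for the library number, a line for the mean of 3 libraries and, in the upper row, bars for the SD. In the panels of Notch2 and Rbpj the TGF-β1 libraries lie below all others, at 188 to 214 and 105 to 129 CPM, and in those of Notch1 and Jag1 they lie above all others, at 114 to 142 and 27.5 to 38.5 CPM.

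Notch2 (ENSMUSG00000027878, chr3:98013527-98150361, plus strand, GRCm38) is the main Notch receptor transcript of these cells. In floxed-labelled cells it was counted at 340, 394 and 347 CPM without ligand and at 196, 202 and 188 CPM with TGF-β1. In knockout-labelled cells the values were 433, 386 and 433 CPM without ligand and 214, 196 and 208 CPM with it. The TGF-β1 libraries were low in both labels, with a wide gap to the untreated ones. Notch2 was left at 54.1% of its untreated level in floxed-labelled cells (log2 fold change -0.89, SE 0.06, edgeR adjusted p = 1.47e-09) and at 49.4% in knockout-labelled cells (-1.02, SE 0.06, adjusted p = 2.1e-10).

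Notch1 (ENSMUSG00000026923, chr2:26457903-26516663, minus strand), the receptor best known from lymphocyte development, moved the opposite way. In floxed-labelled cells its level was 59.6, 65.2 and 62.9 CPM without ligand and 118, 120 and 114 CPM with TGF-β1. The knockout-labelled libraries held 78.6, 65.8 and 85.1 CPM without ligand and 139, 131 and 142 CPM with TGF-β1. Every treated library was above every untreated one. The rise was 0.91 on the log2 scale in floxed-labelled cells (SE 0.07, edgeR adjusted p = 4.9e-09) and 0.85 in knockout-labelled cells (SE 0.07, adjusted p = 1.48e-08). Genes on the opposite strand within the span of Notch1, among them 0610009E02Rik with 162 counts in all 18 libraries, are small beside the 30129 counts of Notch1.

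The balance of the 4 Notch receptors shifted away from Notch2 with TGF-β1. Notch2 supplied 87.1% ± 0.995 (SD, n = 3) of the summed receptor FPKM in untreated floxed-labelled cells and 59.5% ± 1.11 after TGF-β1. In knockout-labelled cells its share was 86.7% ± 0.962 without and 58.8% ± 2.84 with TGF-β1. The share of Notch1 went from 11.5% ± 0.393 to 27.1% ± 0.231 in floxed-labelled and from 12% ± 0.73 to 29.7% ± 0.999 in knockout-labelled cells. With BMP4 the share of Notch2 was 86.8% ± 0.693 and 86.3% ± 1.38, inside or next to the untreated range. These shares describe RNA only and carry no test.

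Notch4, a receptor otherwise known from blood vessels and not among the 7 genes, took up the rest. It was counted at 4.19, 2.69 and 6.06 CPM in untreated and at 35.5, 29.3 and 33.1 CPM in TGF-β1-treated floxed-labelled libraries. In knockout-labelled libraries Notch4 stood at 4.41, 3.54 and 5.9 CPM and at 25.2, 21.9 and 44.4 CPM. Notch4 rose in both labels (log2 fold change 2.93, SE 0.27, edgeR adjusted p = 5.53e-08, and 2.73, SE 0.28, adjusted p = 2.1e-07). Its share of the receptor FPKM went from 1.42% ± 0.604 to 13.3% ± 1.33 and from 1.27% ± 0.257 to 11.5% ± 3.77 (SD, n = 3), while Notch3 stayed at or below 0.108% in every library. Among 9 endothelial markers, 5 were below 1 CPM in every library and Cldn5 had no count. In floxed-labelled cells their summed level was 6.27 to 9.03 CPM untreated and 8.2 to 8.79 CPM with TGF-β1, inside the untreated range. In knockout-labelled cells it was 6.03 to 7.49 CPM untreated and 7.67 to 9.32 CPM with TGF-β1. Of the 9 markers, Cdh5 rose from 0.212 to 1.08 CPM in floxed-labelled cells (edgeR adjusted p = 0.000853) and from 0.367 to 1.21 CPM in knockout-labelled cells (adjusted p = 0.00766). Only 4 of the 9 passed the low-count filter, and the other markers are not given one by one. Cdh5 is a single marker of this list, so nothing is read from it about endothelial RNA. Whether endothelial RNA had a part in the Notch4, Jag1, Hes1 or Hey1 values was not tested.

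**Figure D2:**
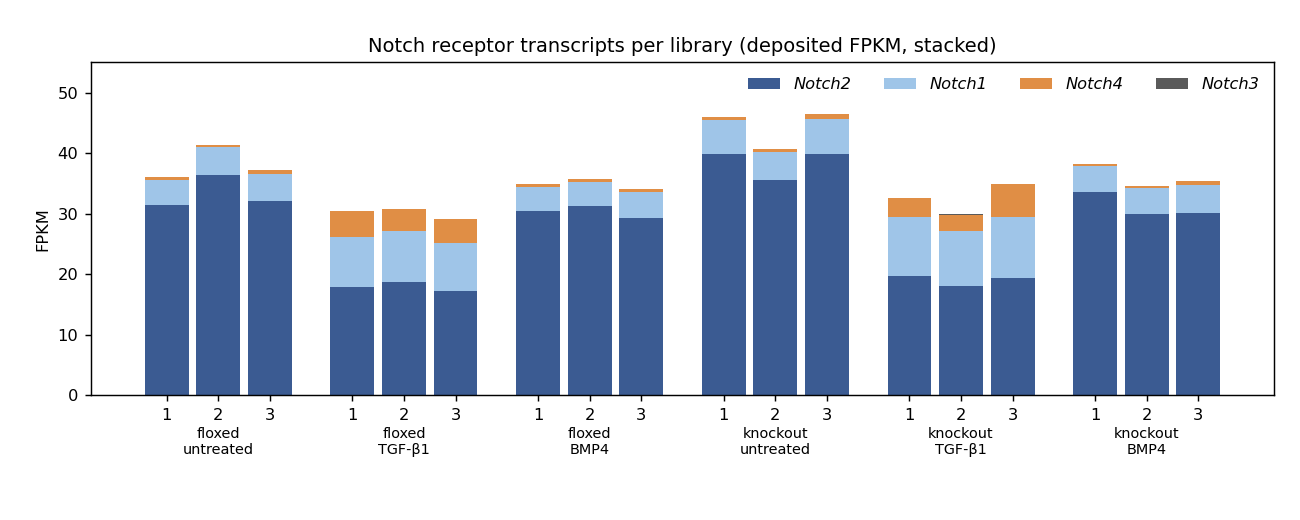
Deposited FPKM of the 4 Notch receptors, stacked for each of the 18 libraries in their 6 groups. Notch2 makes up most of each bar without TGF-β1, and in the 6 TGF-β1 libraries the Notch2 part is smaller and the Notch1 and Notch4 parts are larger. The mean height falls from 38.2 to 30.2 FPKM in floxed-labelled and from 44.4 to 32.4 FPKM in knockout-labelled cells.

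Jag1 (ENSMUSG00000027276, chr2:137081456-137116644, minus strand), a membrane-bound Notch ligand, rose with TGF-β1. In floxed-labelled cells it was counted at 18.5, 17.1 and 23.2 CPM without ligand and at 31.4, 38.5 and 37.2 CPM with TGF-β1. In knockout-labelled cells the values were 14.7, 16.1 and 16.8 CPM and 27.5, 29.1 and 27.9 CPM. The treated and untreated libraries did not overlap in either label. The log2 fold changes of Jag1 were 0.87 (SE 0.12, edgeR adjusted p = 8.59e-06) and 0.83 (SE 0.13, adjusted p = 2.83e-05). Of the 6 other ligand genes only Jag2 was abundant enough to test, at 1.73 CPM without and 1.71 CPM with TGF-β1 in floxed-labelled cells, and it was not called.

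Rbpj (ENSMUSG00000039191, chr5:53466152-53657362, plus strand), the DNA-binding partner of all Notch receptors, fell. Its floxed-labelled libraries held 228, 248 and 231 CPM without ligand and 114, 129 and 125 CPM with TGF-β1. Its knockout-labelled libraries held 223, 211 and 232 CPM without and 115, 105 and 106 CPM with TGF-β1. All 6 treated libraries were below all 6 untreated ones. The log2 fold changes of Rbpj were -0.94 (SE 0.07, edgeR adjusted p = 1.6e-09) and -1.03 (SE 0.07, adjusted p = 4.89e-10). Reads of the processed pseudogene Rbpj-ps3, which was given 345 counts against 66086 for Rbpj, may be divided between these genes.

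Hes1 (ENSMUSG00000022528, chr16:30064384-30067796, plus strand), the classical Notch target, was near the floor without TGF-β1. The untreated floxed-labelled libraries held 0, 1 and 1 counts and the TGF-β1-treated ones 4, 13 and 15 counts. In knockout-labelled cells Hes1 had 0, 0 and 1 counts without and 7, 13 and 15 counts with TGF-β1. All treated libraries were above all untreated ones, at levels of 0.223 to 0.799 CPM that are still low. The ratio of the summed counts, scaled by library totals, was 15.1 in floxed-labelled cells (95% counting interval 3.84 to 130) and 32.2 in knockout-labelled cells (5.42 to 1310). Hes1 was called in both labels, at an edgeR adjusted p of 0.00244 and 0.000874. It passed the low-count filter only through the TGF-β1 groups, so these p are a description and not independent support. With the floxed libraries numbered 1 left out of the fit, the floxed-labelled adjusted p was 0.00596.

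Hey1 (ENSMUSG00000040289, chr3:8663359-8667256, minus strand), a related repressor, was similarly low. It had 4, 3 and 0 counts in untreated and 18, 11 and 15 counts in TGF-β1-treated floxed-labelled libraries. In knockout-labelled cells it had 2, 0 and 0 counts without and 2, 11 and 13 counts with TGF-β1. The treated library numbered 1 of the knockout label, at 0.134 CPM, was hardly above the untreated one of the same number at 0.121 CPM. The ratio was 5.92 in floxed-labelled cells (95% counting interval 2.64 to 15.6) and 12 in knockout-labelled cells (3 to 104), with edgeR adjusted p of 0.0125 and 0.0157. Hey1 too passed the filter only through the TGF-β1 groups, so these p are a description and not independent support. With 3 counts in place of the 2 untreated counts, the knockout-labelled ratio was 7.98. The floxed-labelled call of Hey1 was lost without the floxed libraries numbered 1 (adjusted p = 0.0514), and also when untreated library 3 (0.0576) or TGF-β1 library 1 (0.0585) was left out. Leaving out untreated library 2 (0.062), untreated library 3 (0.0636) or TGF-β1 library 3 (0.0643) ended the knockout-labelled call.

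Nrarp (ENSMUSG00000078202, chr2:25180758-25183339, plus strand), which binds the Notch nuclear complex and limits it, had 8 counts in all 18 libraries. Of these, 3 fell in untreated floxed-labelled, 4 in BMP4-treated floxed-labelled and 1 in untreated knockout-labelled libraries, and the TGF-β1 libraries of both labels had none. Each library was at or below the floor of 3 counts, so Nrarp was not detectable at this depth and no fold is given.

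**Figure D3:**
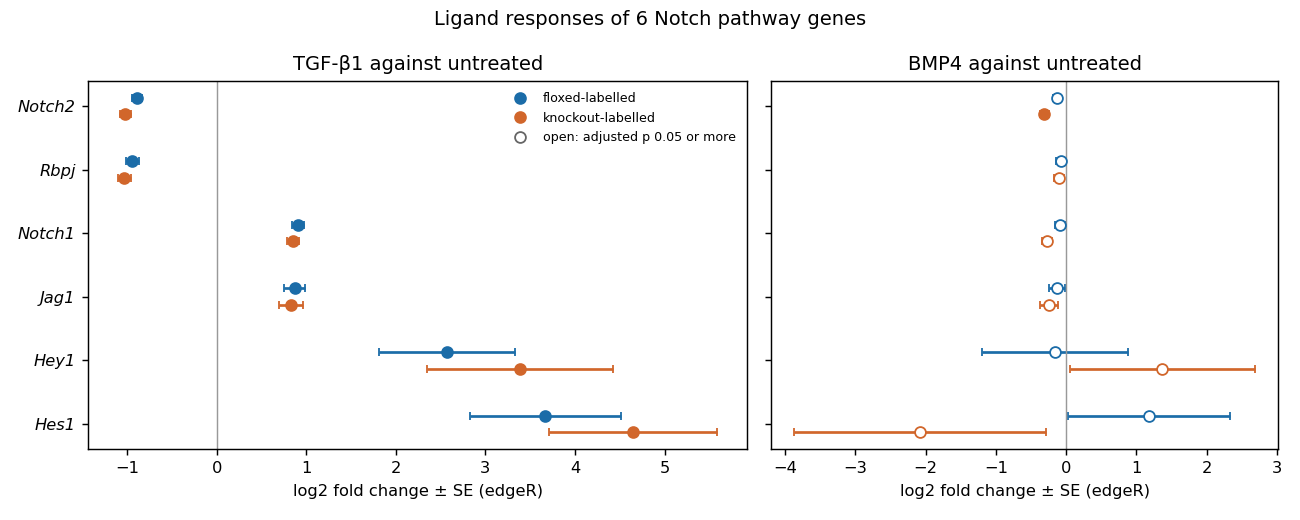
Log2 fold changes from edgeR with their SE for the 6 tested genes, with TGF-β1 against untreated on the left and BMP4 against untreated on the right, each panel on its own horizontal scale. All TGF-β1 symbols are filled (called), from -1.03 for Rbpj to 4.65 for Hes1 in knockout-labelled cells, and with BMP4 only Notch2 in knockout-labelled cells is filled, at -0.31.

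With BMP4, 1 of the 6 tested members was called in 1 of the labels, Notch2 in knockout-labelled cells. In floxed-labelled cells no member was called by edgeR with 1 mean per group, nor was any other gene (background 0%). In that fit 1103 of all genes had an unadjusted p under 0.05. DESeq2 called 14 genes there, and edgeR with the library number as a replicate block within genotype called 53, with no member in either. The background of 0% thus depends on the fit. Notch2 was at 331, 338 and 318 CPM with BMP4, below every untreated library, which was so for 6.66% of all genes. Its log2 fold change was -0.13 (95% interval -0.27 to 0, edgeR adjusted p = 0.662). The 95% intervals of the log2 change were -0.24 to 0.06 for Notch1, -0.21 to 0.07 for Rbpj and -0.38 to 0.13 for Jag1. Hes1 had 4, 0 and 1 counts and Hey1 0, 4 and 2 counts with BMP4, and their ratios of 2.55 (0.417 to 26.8) and 0.874 (0.243 to 3.04) had wide counting intervals.

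In knockout-labelled cells Notch2 was the single member called under BMP4, against a background of 0.572% of genes, or 0.443% for lower ones. It was counted at 362, 324 and 326 CPM, below the 433, 386 and 433 CPM of untreated cells, a log2 fold change of -0.31 (SE 0.06, edgeR adjusted p = 0.0346). The call was lost in the fit of these groups alone (adjusted p = 0.208), without the floxed libraries numbered 1 (0.0691), and in 12 of 18 fits that left out 1 library, where the adjusted p ran from 0.0228 to 0.166 over all 18. Notch1 was at 62, 61.1 and 67.2 CPM, overlapping the untreated values, with a log2 fold change of -0.27 and an adjusted p of 0.101. With the library number as a replicate block within genotype, Notch1 was also called (-0.27, adjusted p = 0.00725), which made 2 members. Rbpj at 217, 188 and 215 CPM and Jag1 at 10.8, 13.6 and 15.8 CPM overlapped the untreated libraries. Hes1 had no count in the 3 BMP4 libraries and Hey1 had 1, 4 and 2 counts. The difference of the BMP4 response between the labels was not called for any member, with a 95% interval of -0.36 to 0.01 for Notch2 and -0.39 to 0.04 for Notch1 on the log2 scale.

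Tested directly against BMP4, TGF-β1 gave higher Notch1 and Jag1 and lower Notch2 and Rbpj in both labels. In floxed-labelled cells 4 members were higher and 2 lower with TGF-β1 (background 34.8% of genes, 17.9% higher and 16.9% lower), and in knockout-labelled cells 3 were higher and 2 lower (32.6%, with 16.4% higher and 16.2% lower). Nothing is read from these counts against the background, since Hes1 and Hey1 passed the filter only through the TGF-β1 groups. The log2 differences were -0.75 and -0.71 for Notch2, -0.87 and -0.93 for Rbpj, 1 and 1.12 for Notch1, and 1 and 1.07 for Jag1, with edgeR adjusted p between 2.86e-10 and 1.69e-06. In knockout-labelled cells Hes1 had 35 counts over the 3 TGF-β1 libraries and 0 over the 3 BMP4 libraries, with a lower 95% counting limit of 10.3 for the ratio (edgeR adjusted p = 0.000168). In floxed-labelled cells the ratio of Hes1 was 5.91 (95% counting interval 2.28 to 19.4, edgeR adjusted p = 0.0119), a call lost without TGF-β1 library 3 (0.0549) or BMP4 library 2 (0.0514) or 3 (0.0604). Hey1 was higher in floxed-labelled cells (ratio 6.77, 2.87 to 19.4, adjusted p = 0.0101), which was lost without the floxed libraries numbered 1 (0.15) or without BMP4 library 1 alone (0.0526). In knockout-labelled cells Hey1 was not called (adjusted p = 0.0645), with a ratio of 4.26 (1.8 to 11.6), and it was called without TGF-β1 library 1 (0.0308).

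Between the genotype labels, 1 member was called at 1 of the 3 treatments. Without ligand, Notch1 was higher in knockout-labelled cells (76.5 against 62.6 CPM on average, log2 fold change 0.29, SE 0.07, edgeR adjusted p = 0.0432), the single member called against a background of 2.39% of genes, or 1.29% for higher ones. Its libraries did not overlap, with 65.8 CPM as the lowest knockout-labelled and 65.2 CPM as the highest floxed-labelled value. The same separation, in this direction, was seen for 11.3% of all genes. The call was lost without the floxed libraries numbered 1 (0.25, adjusted p = 0.185), in the fit of these groups alone (0.172) and in 15 of 18 fits without 1 library, where the adjusted p ran from 0.00361 to 0.21 over all 18. Notch2 averaged 417 against 360 CPM (adjusted p = 0.0835). With TGF-β1 no member was called (background 0.388%). Notch1 averaged 137 against 117 CPM there without overlap (edgeR adjusted p = 0.159), a separation seen for 9.2% of all genes. With BMP4 no member was called either (0.0272%).

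Jag1 was lower in knockout-labelled than in floxed-labelled libraries at each treatment without overlap, but it was not called. Its means were 15.8 against 19.6 CPM untreated, 28.2 against 35.7 CPM with TGF-β1 and 13.4 against 18 CPM with BMP4. The log2 differences of Jag1 were -0.30, -0.35 and -0.42, with edgeR adjusted p of 0.208, 0.21 and 0.406. Groups that did not overlap in this direction made up 9.25%, 10% and 6.22% of all genes in these comparisons. The 3 comparisons use different libraries, but libraries of the same number and label deviated together (median r of 0.582).

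**Figure D4:**
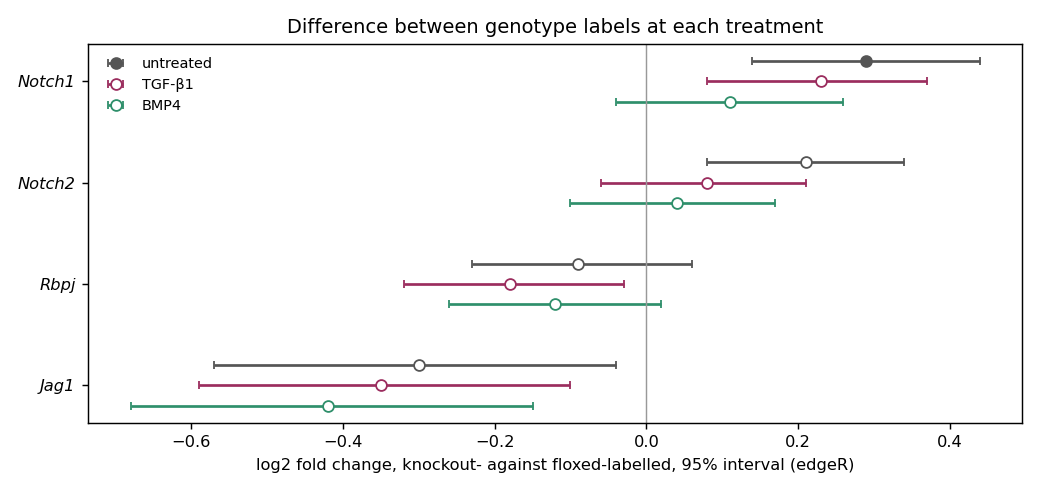
Log2 fold change of knockout- against floxed-labelled libraries for 4 genes at each treatment, with 95% intervals from edgeR. Filled symbols are called, and only Notch1 without ligand is. The symbols of Notch1 lie to the right of 0 and those of Jag1 to the left at all 3 treatments. The Notch1 interval with BMP4 includes 0 (-0.04 to 0.26). For Notch2 without ligand (0.08 to 0.34) and Rbpj with TGF-β1 (-0.32 to -0.03) the interval excludes 0, and their other intervals include it.

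The response to TGF-β1 did not differ detectably between the labels for any of the 6 members. The difference of the responses had 95% intervals of -0.32 to 0.06 for Notch2, -0.27 to 0.15 for Notch1, -0.3 to 0.11 for Rbpj and -0.4 to 0.32 for Jag1 on the log2 scale. For Hes1 and Hey1 the intervals, -2.71 to 4.67 and -2.11 to 3.76, were too wide to limit a difference. Over all genes edgeR called 0.00681% for TGF-β1 and 0% for BMP4 in this test, with 838 genes at an unadjusted p under 0.05 for BMP4, where DESeq2 called 15.

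The rest of the pathway responded to TGF-β1 in both directions. Of 90 further pathway genes, in lists drawn up by role, 71 were tested. In floxed-labelled cells 27 rose and 12 fell, and in knockout-labelled cells 24 rose and 14 fell. Their median log2 fold changes were 0.06 and 0.07, beside 0 for all genes, and the background was the 33% and 34.6% given above. With BMP4, 0 were called in floxed-labelled cells, and in knockout-labelled cells 1 rose (Id3) and 1 fell (Crebbp, edgeR adjusted p = 0.0411), or 3 and 5 with the replicate block within genotype. Without the floxed libraries numbered 1 the counts were 1 and 0 (Crebbp adjusted p = 0.063), as with the block over all groups. In the fit without a block, BMP4 gave calls for 0% of all genes in floxed-labelled and 0.572% in knockout-labelled cells.

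Among 15 genes of receptor maturation and cleavage, 7 rose and 4 fell in floxed-labelled cells, and 7 rose and 3 fell in knockout-labelled cells. Of all genes, 33% and 34.6% were called in these labels. This list and those that follow were chosen with earlier results of these data known, so nothing is read from their counts. Furin, the protease that cuts the receptor on its way to the surface, rose from 175 to 446 CPM and from 195 to 463 CPM. Adam10, the main protease of the ligand-induced cut, rose from 207 to 428 CPM and from 232 to 493 CPM. The fringe glycosyltransferase Lfng rose from 82.8 to 124 CPM and from 95.6 to 139 CPM. The γ-secretase subunit genes Aph1b (from 21.1 to 10.8 and from 22.7 to 11.9 CPM) and Aph1c (from 93.5 to 55.8 and from 98.5 to 55.4 CPM) fell. The edgeR adjusted p of these 5 genes lay between 1.41e-13 for Furin and 2.01e-05 for Aph1c in floxed-labelled cells.

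Of 7 genes for ubiquitination of ligands, 2 rose in floxed-labelled and 3 in knockout-labelled cells and none fell, with Neurl3, an ubiquitin ligase of the Neuralized family, going from 274 to 512 CPM in floxed-labelled cells (edgeR adjusted p = 3.33e-11). Of 9 genes of the nuclear complex, Rbpj included, 3 rose and 3 fell in floxed-labelled cells, and 2 rose and 4 fell in knockout-labelled cells. The Mastermind-like coactivators moved apart: Maml3 rose from 5.59 to 16.2 CPM (edgeR adjusted p = 1.55e-08) and Maml1 fell from 43.6 to 35 CPM (adjusted p = 0.00114) in floxed-labelled cells. Of 15 tested corepressor genes, 4 rose and 2 fell in floxed-labelled cells, and 3 rose and 4 fell in knockout-labelled cells. Beside each of these lists, 33% of all genes were called in floxed-labelled and 34.6% in knockout-labelled cells. Tle1, a Groucho-family corepressor, rose from 27.2 to 68.8 CPM (edgeR adjusted p = 6.36e-08), and L3mbtl3, a chromatin reader that binds Rbpj, fell from 16.9 to 5.74 CPM (adjusted p = 7.57e-10) in floxed-labelled cells.

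Of 12 tested inhibitors and receptor turnover genes, 3 rose and 2 fell in floxed-labelled cells (3 and 1 without the floxed libraries numbered 1), and 3 rose and 3 fell in knockout-labelled cells. Dtx4, an ubiquitin ligase of the Deltex family, rose from 105 to 198 CPM in floxed-labelled cells (edgeR adjusted p = 5.15e-07), Numb, an adaptor that promotes receptor endocytosis, rose from 96.5 to 129 CPM (adjusted p = 0.00138), and Dtx2 fell from 17.9 to 10.7 CPM (adjusted p = 1.4e-06). Of 8 tested targets other than the Hes and Hey genes, 5 rose and 2 fell in floxed-labelled cells, and 3 rose and 1 fell in knockout-labelled cells (4 and 2 without the floxed libraries numbered 1). Beside both lists, 33% of all genes were called in floxed-labelled and 34.6% in knockout-labelled cells. Myc rose from 6.64 to 14.5 CPM (adjusted p = 4.34e-06) and Nfkb2 fell from 167 to 137 CPM (adjusted p = 0.00187) in floxed-labelled cells.

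In the list headed Hes and Hey family, 6 of 12 genes were tested, and the 4 that rose in both labels were Hes1, Hey1, Bhlhe40 and Bhlhe41. Of these, Bhlhe40 and Bhlhe41 are related repressors and not Hes or Hey genes. Hes1 and Hey1 passed the filter only through the TGF-β1 groups, so no rise of the family is read from this count. Bhlhe40, a repressor of the same fold, was the clearest: it stood at 2.95, 2.5 and 3.77 CPM in untreated and at 26.5, 24.4 and 22.9 CPM in TGF-β1-treated floxed-labelled libraries. In knockout-labelled libraries Bhlhe40 went from 2.42, 2.74 and 3.08 CPM to 20.2, 32.6 and 21.9 CPM. The log2 fold changes of Bhlhe40 were 3.01 and 3.18, with edgeR adjusted p of 6.91e-11 and 6.78e-11. Hes6 was at 20.9 and 19.1 CPM and Hes7 at 0.46 and 0.237 CPM without and with TGF-β1 in floxed-labelled cells, and neither was called (edgeR adjusted p = 0.329 and 0.202), but both fell without the floxed libraries numbered 1 (0.0232 and 0.0317). Hes5, Heyl and Helt had no count in any library and Hey2 had 1.

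**Figure D5:**
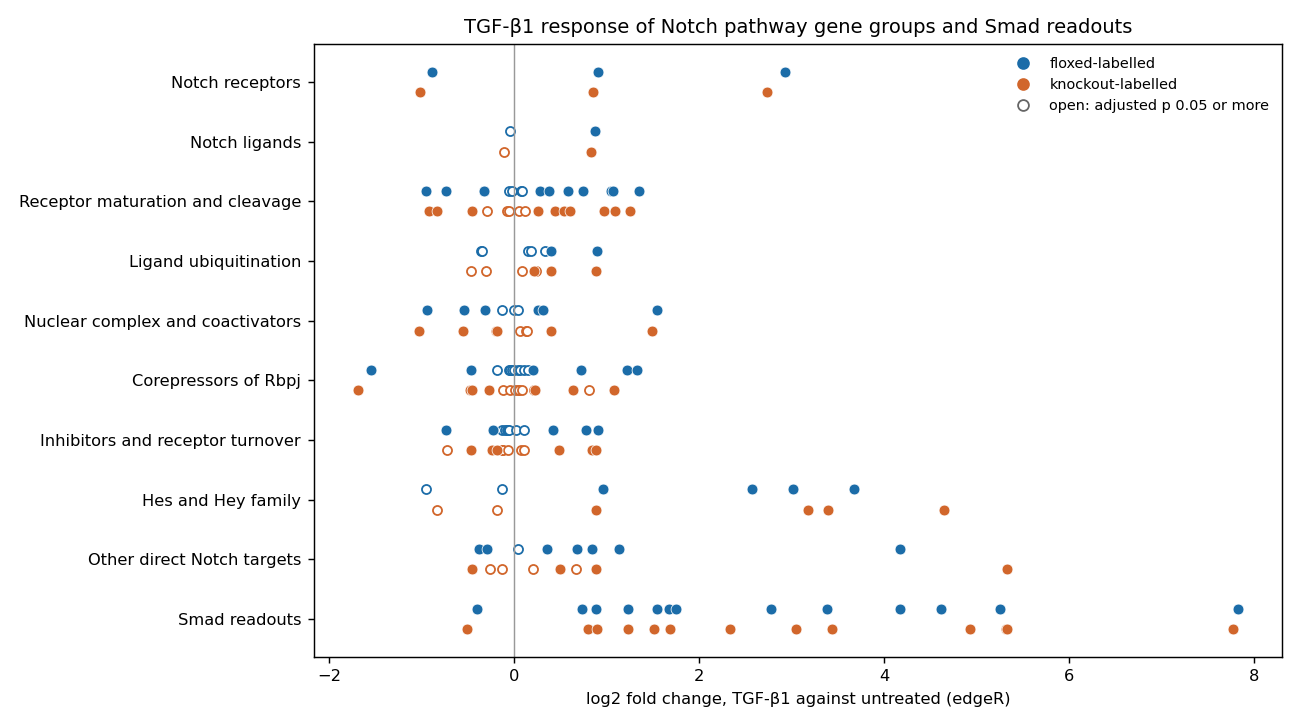
Log2 fold change with TGF-β1 for every tested gene of 10 lists, the members included, in floxed-labelled and knockout-labelled cells; filled symbols are called. Most lists spread to both sides of 0, and 12 of 13 Smad readouts lie to the right of it in both labels. The lists were chosen with earlier results of these data known, so the difference between them carries no test.

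Smad target genes were read beside Hes1 and Hey1 because the latter also respond to Smads. Of 13 such genes, 12 rose and 1, Bambi, fell with TGF-β1 in both labels, where 17% and 17.6% of all genes rose. The list was drawn up with earlier results of these data known, so nothing is read from its count against that background. In floxed-labelled cells Bambi was called at an edgeR adjusted p of 0.0126, and the call was lost without the floxed libraries numbered 1 (0.057). Smad7, an inhibitory Smad induced by the pathway, rose from 4.52 to 47 CPM in floxed-labelled cells (edgeR adjusted p = 3.79e-14) and from 5 to 54.3 CPM in knockout-labelled cells (adjusted p = 3.84e-14). Id3, a helix-loop-helix inhibitor that is a target of Smad1 as well as of Notch, had 0.813, 1.46 and 1.06 CPM without ligand in floxed-labelled cells, 1.88, 10.6 and 9.04 CPM with BMP4 and 9.9, 25.3 and 24.2 CPM with TGF-β1. The library numbered 1 was lowest in each of the treated groups. In knockout-labelled libraries Id3 was at 1.63, 1.1 and 0.942 CPM untreated, at 13.1, 12.9 and 20.7 CPM with BMP4 and at 50.1, 52.6 and 46.7 CPM with TGF-β1.

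With BMP4, 0 of the 13 Smad readouts were called in floxed-labelled cells (background 0%). In knockout-labelled cells 2 rose and 11 were not called (background 0.572%). The median log2 fold changes of the 13 genes were 0.02 and 0.03. Id3 stood above every untreated library in both labels, as did 6.5% of all genes in floxed-labelled and 7.31% in knockout-labelled cells. Hes1 and Hey1 overlapped their untreated libraries, but at so few counts that overlap says little. The rise of Id3 with BMP4 was called in knockout-labelled cells (log2 fold change 3.66, SE 0.52, edgeR adjusted p = 0.00509). In floxed-labelled cells it was not called (2.68, adjusted p = 0.239), but it was with the replicate block (2.61, adjusted p = 4.66e-06) and without the floxed libraries numbered 1 (2.94, adjusted p = 0.00025). Id2, a related gene, rose with BMP4 in knockout-labelled cells from 17.4 to 26.5 CPM (adjusted p = 0.00121).

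The genes whose pattern was most like each member were taken from the 3 with the highest Pearson r of log2 CPM over the 18 libraries, leaving out genes that averaged under 1 CPM. They were Syk (r = 0.99), Arap1 (0.989) and Ptprj (0.986) for Notch2, and Fndc3b (0.989) and Inpp5d (0.985) for Notch1. For Rbpj they were Rgl1 (0.993), Spred1 (0.988) and Snx2 (0.985), and for Jag1 Bola2 (0.953), Aldoa (0.949) and Procr (0.946). For Hes1 they were Polr3f (0.94), Cebpg (0.938) and Rassf3 (0.938), and for Hey1 Ddx42 (0.939), Cables2 (0.922) and Dusp13 (0.886). These correlations share the TGF-β1 contrast and the libraries, and they are a description. Over the 12 libraries without TGF-β1 the r of Notch2 with Syk was 0.92 and that of Hes1 with Polr3f 0.545.

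Among the members, the same contrast set the pairwise pattern. Notch1 and Notch2 had r = -0.822 over the 18 libraries but 0.826 over the 12 without TGF-β1. Notch2 and Rbpj had r = 0.943 over 18 and 0.389 over 12 libraries. Hes1 and Hey1 had r = 0.639 over 18 and -0.561 over 12 libraries, where both were at or below a few counts.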

How the data were processed

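Per the submitters' processing notes, the reads were mapped to mm10 (GRCm38.p6) by TopHat2 2.0.9, HTSeq 0.6.1 counted them per gene, and Cufflinks 2.1.1 gave scaled levels. Whether counting used strand is not given in the sources used here. The deposited columns hold raw read counts and the authors' FPKM per gene, per the file headers. Of the table, 78 further per-sample columns were not used. The members and gene lists were chosen with earlier results of these data known.

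Counts were fitted with edgeR 4.0.16 under R 4.3.3 (TMM factors, filterByExpr, quasi-likelihood F test, two-sided, 1 mean per group over all 18 libraries, Benjamini-Hochberg over 14684 genes) in 11 comparisons. CPM are TMM-scaled. SE is the log2 fold change divided by the square root of F. The steps were tested on simulated counts. Alternatives were other scalings and filters, DESeq2 1.42.0, limma 3.58.1 on log2(FPKM + 1) and log2(FPKM + 0.1), only the groups compared, 15 libraries (without the floxed libraries numbered 1), library number as a block, and each library left out.

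The pairing of libraries was checked as the correlation of deviations from group means. Libraries of the same number and genotype label had r from 0.335 to 0.731 in 18 of 18 pairs (median 0.582), whereas the same number across labels gave a median of -0.0879, so the block was set within genotype.

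Named genes were the members, up to 4 called genes per direction from each list, fixed Smad readouts and the 3 genes most like each member; of these, a subset is printed, and 1 gene is not reported here.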

Additional observations from a re-analysis of the deposited data

Results flagged for a closer look

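Among the genes reported, Id2 was the one whose TGF-β1 response differed between the genotype labels by a test of the difference itself. Id2 went from 20.9 to 66.8 CPM in floxed-labelled and from 17.4 to 87.4 CPM in knockout-labelled cells, a difference of 0.65 on the log2 scale (SE 0.1, edgeR adjusted p = 0.0432). Without the floxed libraries numbered 1, the difference in Id2 was 0.56 with an adjusted p of 1. No Notch member met that test. Groups of 3 libraries were not tested for outlying libraries.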

How the results depend on the processing

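The 4 comparisons of TGF-β1 with untreated cells or with BMP4 gave 5 to 6 called members whichever single library was left out, and no called member value changed direction in any alternative run. For BMP4 in knockout-labelled cells, 1 member was called, against 0 with only the groups compared, with 15 libraries or with limma on log2(FPKM + 0.1), 2 with the replicate block within genotype, and 0 to 2 with 1 library left out. For the genotype labels without ligand, 1 member was called, against 2 with no low-count filter or with DESeq2, 0 with only the groups compared, with 15 libraries or with limma on either scale, and 0 to 2 with 1 library left out. With no low-count filter 1 member, Jag1, was called between the labels under TGF-β1 (adjusted p = 0.0262) and 1, again Jag1, under BMP4 (0.0085), against 0 in each. The paired fit, with the replicate block within genotype, changed no other member call. The cause of these differences was not tested.

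Values that changed direction were not called in any setting. With 15 libraries these were Hes1 (-0.86) and Hey1 (0.95) for BMP4 in floxed-labelled cells, Hey1 between labels with BMP4 (-0.36), and the difference of BMP4 responses for Rbpj (0). With limma the difference of TGF-β1 responses for Hey1 was -0.05 or -0.17. With 1 library left out, 19 uncalled values changed direction. For BMP4 in floxed-labelled cells they ranged from -1.17 to 0.43 for Hey1, -0.3 to 1.66 for Hes1 and -0.21 to 0.01 for Jag1, and in knockout-labelled cells from -2.55 to 0 for Hes1. Between labels with BMP4 the ranges were -0.4 to 1.24 for Hey1 and -0.02 to 0.06 for Notch2. Differences of TGF-β1 responses ranged from -0.15 to 0.03 for Notch1 and -0.16 to 0.06 for Jag1, and differences of BMP4 responses from -0.08 to 0.04 for Rbpj and -0.25 to 0.03 for Jag1.

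Over all genes, calls for BMP4 in floxed-labelled cells went from 0 to 14 with DESeq2, 69 with no filter and 53 with the replicate block, and in knockout-labelled cells from 84 to 181, 240 and 472, and to 2 with only the groups compared. Calls between labels without ligand went from 351 to 817 with no filter and to 39 with 15 libraries, under TGF-β1 from 57 to 394 and 2, and under BMP4 from 4 to 287 with no filter and 34 with DESeq2. Other scalings moved the median of all genes by at most 0.03. Depth limits what can be said of Hes1, Hey1 and Nrarp.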
